A study of Mus musculus with 20 samples.

Results

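The genes described here are 36 genes of microglia, the resident macrophages of the brain, out of 24421 gene symbols counted in each library. They were listed by symbol, with earlier results of these data known, so shares of members called are not those of an unselected list. The homeostatic set holds 15 genes, from Cx3cr1 to Slco2b1, that mark microglia of the undisturbed brain. The activated set holds 21 genes, from Trem2 onwards, that are raised around plaques, in injury or in ageing. All 36 were found by their symbol in all 20 libraries. RNA of the neocortex (NCX) and hippocampus (HP) was sequenced when the mice were 3 months old, in 5 libraries per genotype and region. The cTKO mice carried floxed App, Aplp1 and Aplp2 and a Camk2a-Cre transgene, which acts after birth in excitatory neurons of the forebrain. Controls were littermates, labelled wild type, that carried the same floxed alleles without Cre. The mice were of both sexes on a mixed C57BL/6J and 129 background. Microglia are not a target of the Cre, so the comparison asks whether genes of a cell type that keeps the APP family differ when neurons lose it. RNA of the neocortex and of the hippocampus was extracted with different kits, so region and kit cannot be told apart.

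Microglia depend on signals from their neighbours. The ligands Csf1 and Il34 keep them alive through the receptor Csf1r, neurons hold them at rest through Cx3cl1 and its receptor Cx3cr1, and TGF-beta maintains their homeostatic genes. In disease they pass through a programme that depends on the receptor Trem2 and its signalling partner Tyrobp. Homeostatic genes such as P2ry12 and Tmem119 then go down, and genes of lipid handling, lysosomes and phagocytosis, such as Gpnmb, Cd9, Cd63, Lpl and Clec7a, go up. In whole tissue, fewer microglia and less RNA of a gene per microglial cell cannot be told apart.

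Levels are given as CPM, read counts scaled to the size of the library, for libraries 1 to 5 of each group. Total counts ranged from 12169474 to 25331954 per library, and 3 counts, the smallest level taken as measurable, stood for 0.123 to 0.247 CPM. The deleted genes fitted their labels: App was at 1380 to 1810 CPM in the controls of both regions and at 331 to 461 CPM in the cTKO mice, without overlap, and Aplp1 and Aplp2 did not overlap either. High Xist was seen in 2 of the 5 libraries of each group. A pair of cTKO libraries stood apart: library 4 of the hippocampus and library 5 of the neocortex held embryonic globin RNA (Hbb-y at 121 and 193 CPM, Hba-x at 55.6 and 77.2 CPM) and H19 (195 and 318 CPM), against at most 0.818, 0.658 and 2.15 CPM in the other 18. Library 5 of the cTKO neocortex also held Ddx3y, a gene of the Y chromosome, at 3.41 CPM although its Xist was high. Values without these libraries are given beside those that they move most, and all results leaving them out were chosen with this pattern known. Nrros, Gpnmb, Blnk and Rab32 were called by the study in both regions at an FDR under 0.05 on these same libraries. Their values here are thus not independent evidence, and several of those calls are not met by the test used here. The study also measured the genes shared by both regions with qRT-PCR in a different set of mice. There it reported significance in both regions for all but Fndc9, Foxm1 and Top2a. Fewer of these fell short in the hippocampus than in the neocortex.

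In neither region was a homeostatic gene called as changed. Differences were tested with edgeR's quasi-likelihood test over all genes, and a gene was called at a false discovery rate (FDR) under 0.05. In the neocortex 0 of 15 were called, against 0.188% of the 13843 genes tested, and 1 of 15, Nrros, had an unadjusted p under 0.05 with a lower level, against 4.86% of all genes with a lower and 10.4% with either. DESeq2 and edgeR's exact and likelihood ratio tests also called 0 there. In the hippocampus 0 of 15 were called, against 0.489% of 13702 genes, and 3 had an unadjusted p under 0.05, all with a lower level, against 5.88% of all genes with a lower and 12% with either. DESeq2 and both other edgeR tests called 1 of them, Nrros. Over all alternative fits, 15 to 331 of all genes were called in the hippocampus, against 67 in the main fit. Small negative differences were common: 13 of 15 genes had a negative log2 fold change in the neocortex, with a median of -0.11 against 0.0090 over all genes. In the hippocampus it was 11 of 15, with a median of -0.06 against 0.0049. Of all genes 53.1% had a positive one in the neocortex and 51.6% in the hippocampus. Without the library holding embryonic RNA the counts were 13 of 15 with a median of -0.09 in the neocortex and 14 of 15 with a median of -0.18 in the hippocampus.

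The genes that define microglia were present in every library. Cx3cr1, the fractalkine receptor, was at 40.3, 46.5, 39.9, 44.4 and 40.0 CPM in the control neocortex and at 37.1, 40.9, 43.3, 37.5 and 35.6 CPM in the cTKO neocortex. It was at 43.8, 51.5, 43.5, 40.4 and 50.3 CPM in the control hippocampus and at 47.8, 37.4, 39.4, 52.7 and 45.9 CPM in the cTKO hippocampus. The genotypes overlapped in both regions, with log2 fold changes of -0.11 (95% interval -0.28 to 0.06) and -0.04 (-0.28 to 0.20).

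P2ry12, the purinergic receptor that steers microglial processes towards injury, was at 51.5, 58.1, 47.9, 49.4 and 44.0 CPM in the control neocortex and at 47.9, 50.03, 47.6, 43.6 and 46.6 CPM in the cTKO neocortex. Hippocampal levels were 59.8, 74.4, 63.5, 59.2 and 61.5 CPM in controls and 68.8, 46.9, 52.6, 52.2 and 55.1 CPM in cTKO mice. In the hippocampus 4 of the 5 cTKO libraries lay below every control, and library 1 lay among them. The log2 fold change there was -0.21 (95% interval -0.44 to 0.02, FDR = 0.432), and in the neocortex -0.08 (-0.26 to 0.09).

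Tmem119, a surface protein of microglia, was at 16.2, 16.8, 19.3, 19.8 and 20.1 CPM in the control neocortex and at 14.04, 18.01, 18.6, 15.6 and 14.9 CPM in the cTKO neocortex. Hippocampal levels were 19.7, 21.04, 20.3, 23.6 and 22.1 CPM in controls and 21.6, 19.7, 19.4, 26.5 and 18.8 CPM in cTKO mice. The groups overlapped, and the highest cTKO value was that of library 4, which holds embryonic RNA. The log2 fold changes were -0.18 (95% interval -0.41 to 0.06) and -0.01 (-0.24 to 0.22).

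Csf1r, the growth factor receptor that microglia need to survive, was at 85.0, 95.2, 98.5, 99.8 and 92.0 CPM in the control neocortex and at 87.1, 93.7, 89.1, 87.9 and 68.6 CPM in the cTKO neocortex. Its hippocampal levels were 85.6, 97.3, 85.5, 95.9 and 98.6 CPM in controls and 86.6, 73.8, 84.2, 101 and 84.0 CPM in cTKO mice. The lowest neocortical value was that of cTKO library 5, and the highest hippocampal value that of cTKO library 4. The log2 fold changes were -0.13 (95% interval -0.31 to 0.04) and -0.11 (-0.29 to 0.08).

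Selplg, the ligand of P-selectin, was at 43.3, 49.2, 42.6, 50.1 and 49.9 CPM in the control hippocampus and at 45.1, 30.9, 39.97, 43.9 and 41.2 CPM in the cTKO hippocampus. Of the cTKO libraries 3 lay below every control, with a log2 fold change of -0.23 ± 0.10 (SE, FDR = 0.385). In the neocortex it was at 35.7 to 49.1 CPM in controls and 29.1 to 48.9 CPM in cTKO mice, with a log2 fold change of -0.18. Slco2b1, an organic anion transporter, stood at -0.20 ± 0.09 (SE, FDR = 0.402) in the hippocampus and -0.11 in the neocortex. Fcrls, a receptor-like gene of rodent microglia, was at 19.97, 14.5, 13.3, 9.65 and 15.4 CPM in the control neocortex and at 8.44, 13.3, 10.2, 13.9 and 13.03 CPM in the cTKO neocortex. These overlapped, with a log2 fold change of -0.31 ± 0.18 (SE, FDR = 0.593), and in the hippocampus Fcrls stood at -0.01. The neocortical log2 fold changes of P2ry13, Siglech, Sall1, Olfml3, Gpr34, Aif1 and Itgam lay between -0.12 and 0.13. Their hippocampal ones ran from -0.19 to 0.20. The highest of these, that of Olfml3, turned to -0.13 (FDR = 0.724) without library 4, and that of Fcrls was then -0.20 (FDR = 0.69). Reads of P2ry12 and P2ry13, which lie within Med12l, and of Gpr34, which overlaps Cask, may be shared with those genes, since whether reads were counted by strand is not given in the sources used here.

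**Figure D1:**
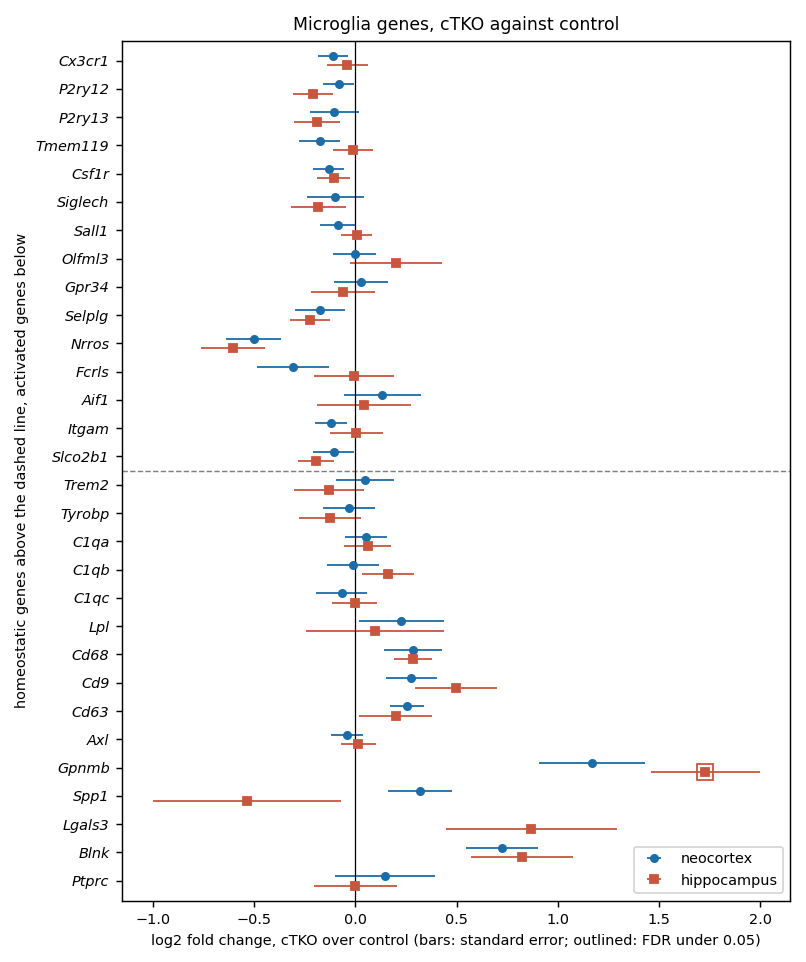
Log2 fold change of cTKO over control for each microglia gene tested, in the neocortex (circles) and hippocampus (squares), with standard errors from edgeR over 5 libraries a group. Homeostatic genes lie mostly a little left of 0, Nrros furthest at -0.50 and -0.60, while Gpnmb (1.17 and 1.73) and Blnk (0.72 and 0.82) stand to the right; the outlined point, Gpnmb in the hippocampus, is the only call at an FDR under 0.05.

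Nrros (also called Lrrc33) was the homeostatic gene with the largest difference in both regions. Its product holds latent TGF-beta 1 on the surface of microglia so that integrins of neighbouring cells can release it. In the control neocortex it was at 7.13, 5.91, 6.58, 8.34 and 7.92 CPM, and in the cTKO neocortex at 4.69, 5.04, 5.79, 4.29 and 5.41 CPM. Every cTKO library lay below every control, which was so for 1 of 15 homeostatic genes and for 1.6% of all genes tested. The means were 7.18 ± 0.982 and 5.04 ± 0.585 CPM (SD, n = 5). On the log2 scale the difference was -0.50 ± 0.14 (SE, FDR = 0.187). A two-sided exact permutation test on log2 CPM gave p = 0.00794, the lowest value that 5 libraries against 5 allow.

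In the hippocampus Nrros was at 7.44, 8.07, 9.80, 12.03 and 8.47 CPM in controls and at 4.88, 7.66, 6.56, 5.45 and 5.59 CPM in cTKO mice. Only cTKO library 2 reached above the lowest control. The log2 fold change was -0.60 ± 0.16 (SE, FDR = 0.144; exact permutation p = 0.0159). It was called in the hippocampus under edgeR's exact and likelihood ratio tests, DESeq2 and a fit of all 20 libraries, and in the neocortex only by the exact test without the libraries holding embryonic RNA. Without those libraries the quasi-likelihood test gave -0.54 (FDR = 0.0983) in the neocortex and -0.58 (FDR = 0.194) in the hippocampus. The gene lies on chromosome 16 and overlaps no other counted gene. The 250 bases before its annotated start, shown because it was the lowest of the homeostatic genes relative to control, are chr16:32165595-32165844 (minus strand) of GRCm38.p6 in RefSeq, and held no match to the PU.1, AP-1 and E-box motifs searched.
Nrros: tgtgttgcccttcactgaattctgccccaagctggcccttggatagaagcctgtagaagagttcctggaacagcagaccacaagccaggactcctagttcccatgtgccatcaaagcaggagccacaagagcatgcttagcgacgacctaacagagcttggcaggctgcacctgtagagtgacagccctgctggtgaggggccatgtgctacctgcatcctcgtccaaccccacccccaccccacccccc

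The partners of Nrros in TGF-beta release gave 0 calls in either region. Of 9 genes of TGF-beta presentation and signalling, 2 had an unadjusted p under 0.05 in each region, all with positive differences, and the medians over the 9 were 0.06 (neocortex) and 0.11 (hippocampus). In the neocortex these were the latent TGF-beta binding proteins Ltbp1 (log2 fold change 0.45, FDR = 0.438, but 0.19 with FDR = 0.514 without library 5) and Ltbp3 (0.19, FDR = 0.444). In the hippocampus they were the integrin chains Itgav (0.37, FDR = 0.147) and Itgb8 (0.31, FDR = 0.349), which together free the latent form, and without library 4 Itgb8 stood at 0.20 (FDR = 0.502). The ligand Tgfb1 was at 5.90, 6.75, 7.41, 5.87 and 9.10 CPM in the control neocortex and at 13.4, 7.69, 8.75, 8.27 and 9.63 CPM in the cTKO neocortex. The groups overlapped through control library 5, and the log2 fold change was 0.46 (FDR = 0.354). Il34, the second ligand of Csf1r, had a log2 fold change of -0.28 (FDR = 0.212) in the hippocampus and -0.13 (FDR = 0.692) in the neocortex.

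Among the activated genes Gpnmb rose in the hippocampus, and it had the largest difference of all members in both regions. Gpnmb encodes a transmembrane glycoprotein that microglia and macrophages raise when their lysosomes are loaded. In the hippocampus 1 of 15 activated genes tested was called, against 0.314% of all genes called higher, and 4 of 15 had an unadjusted p under 0.05 with a higher level, against 6.13% of all genes. There 10 of 15 had positive log2 fold changes with a median of 0.10, but without library 4 it was 6 of 15 with a median of -0.03. In the neocortex 0 of 14 were called at an FDR under 0.05, against 0.0867% called higher; 4 of 14 had an unadjusted p under 0.05, against 5.57% of genes with a positive difference, and 2 were called with the exact test, the likelihood ratio test or DESeq2. Of the 14, 10 were positive, with a median of 0.19. Without library 5 it was 13 of 14 with a median of 0.19, and Gpnmb and Blnk were called, when 0.966% of all genes were. Activated genes under the filter (a CPM over 1 in 5 or more of the 10 libraries) numbered 7 in the neocortex and 6 in the hippocampus, and are described apart.

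Gpnmb was at 4.92, 5.62, 8.17, 6.75 and 6.80 CPM in the control hippocampus and at 12.8, 28.8, 13.3, 33.9 and 18.3 CPM in the cTKO hippocampus. Every cTKO library lay above every control, which was so for 1 of 15 activated genes and 1.9% of all genes, and the cTKO values spread from 12.8 to 33.9 CPM. The means were 6.45 ± 1.24 and 21.4 ± 9.48 CPM (SD, n = 5), a 3.31-fold difference or 1.73 ± 0.27 on the log2 scale (SE, FDR = 0.0153). Without library 4, the highest, the log2 fold change was 1.49 and the FDR 0.0172. The call was lost when control library 1, 2 or 4 was left out (FDR = 0.0591, 0.0675 and 0.0675), with log2 fold changes of 1.64, 1.68 and 1.74.

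In the neocortex Gpnmb was at 2.99, 3.82, 4.11, 4.11 and 4.66 CPM in controls and at 6.997, 10.3, 5.79, 15.1 and 5.33 CPM in cTKO mice. Again no cTKO library reached down to the controls, which was so for 0.766% of all genes. The log2 difference was 1.17 ± 0.26 (SE, FDR = 0.108; exact permutation p = 0.00794). Without library 5 it was 1.29 and was called (FDR = 0.0285), and it was also called without cTKO library 3. Gfap, the astrocyte filament gene, was at 76.4 to 149 CPM in the control neocortex and at 170.0, 126.7, 184, 505 and 95 CPM in the cTKO neocortex, with a log2 fold change of 0.96 (FDR = 0.359) and of 1.14 (FDR = 0.139) without library 5. Library 4 of the cTKO neocortex was the highest in both Gfap and Gpnmb, but library 3, the next in Gfap (184 CPM), had Gpnmb at 5.79 CPM. In the hippocampus Gfap was above every control in 4 of 5 cTKO libraries, at 333 to 556 CPM in controls and at 1455, 637, 745, 3108 and 426 CPM in cTKO mice, with a log2 fold change of 1.58 (FDR = 0.163) and of 0.93 (FDR = 0.195) without library 4. The sum of 6 astrocyte markers in the hippocampus was 1880 to 2330 CPM in controls and 1840 to 4700 CPM in cTKO mice, and 3 of the 6 had negative log2 fold changes. The smallest p of the 6 there was that of Gjb6, at 60.5 to 74.7 CPM in controls and 47.4 to 57.4 CPM in cTKO mice. In the neocortex 5 of the 6 had negative log2 fold changes, with a median of -0.115. In both regions 0 of the 6 were called. Library 4 of the cTKO hippocampus was the highest in both Gfap and Gpnmb, while library 1, the next in Gfap, had the lowest Gpnmb of its group (12.8 CPM). The part of astrocytes in the Gpnmb difference was not tested. Gpnmb is also a gene of pigment cells, and the sum of 6 melanocyte markers was at most 2 CPM in any library. The part of pigment cells in the Gpnmb difference was not tested either.

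Gpnmb lies at chr6:49036518-49058182 on the plus strand of GRCm38.p6 and overlaps no other counted gene. Its start is shown because it was the only member called between genotypes by the quasi-likelihood test. The RefSeq window held an AP-1 motif, TGANTCA, in capitals here, at bases 9 to 15 counted from 1 at the start, and no other motif searched. The stretches are the 250 bases before the start (chr6:49036268-49036517) and the bases after it (chr6:49036518-49036540).
Gpnmb before the start: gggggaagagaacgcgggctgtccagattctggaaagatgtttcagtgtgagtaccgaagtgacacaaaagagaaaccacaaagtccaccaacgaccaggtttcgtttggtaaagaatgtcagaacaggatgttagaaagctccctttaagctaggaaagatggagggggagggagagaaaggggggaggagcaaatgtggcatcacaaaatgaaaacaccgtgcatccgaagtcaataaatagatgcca
Gpnmb after the start: ggggcaagTGACTCAtgagcacg

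Blnk had the next largest difference among members in the neocortex. Blnk encodes an adaptor protein best known in B cells, where it couples the antigen receptor to Plcg2 and Btk, and microglia express it too. In the neocortex it was at 8.61, 9.62, 13.2, 14.1 and 12.2 CPM in controls and at 21.8, 15.5, 25.1, 19.2 and 12.7 CPM in cTKO mice. Only cTKO library 5 fell among the controls. The log2 difference was 0.72 ± 0.18 (SE, FDR = 0.141; exact permutation p = 0.0238), and without library 5 it was 0.83 and was called (FDR = 0.0309).

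In the hippocampus Blnk was at 5.07, 6.83, 9.21, 8.41 and 7.06 CPM in controls and at 12.7, 11.9, 22.4, 7.84 and 9.99 CPM in cTKO mice. Here cTKO library 4 fell among the controls and library 3 was the highest. On the log2 scale the difference was 0.82 ± 0.25 (SE, FDR = 0.21), and 0.95 (FDR = 0.114) without library 4. So the libraries with embryonic RNA had the lowest Blnk of the cTKO libraries in both regions. For Gpnmb, library 4 was the highest of the cTKO hippocampus and library 5 the lowest of the cTKO neocortex. Markers of B cells were near 0: the sum of 6 was at most 1.11 CPM in any library, and 0 of 6 passed the filter.

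The signalling chain that Blnk and Tyrobp feed gave 0 calls. Of 8 genes, 5 in the neocortex and 6 in the hippocampus had negative log2 fold changes, with medians of -0.06 and -0.03. In each region 1 had an unadjusted p under 0.05, against 10.4% (neocortex) and 12% (hippocampus) of all genes. That was Plcg2, the phospholipase of the chain, at -0.27 (FDR = 0.454) and -0.28 (FDR = 0.416). Blnk lies on the minus strand at chr19:40928927-40994221 and overlaps no other counted gene. Its window is shown beside that of Gpnmb because it held the core of the PU.1 motif, GGAAGT, in capitals, at bases 201 to 196 before the start and, on the opposite strand, at the first bases of the transcript. The stretches are chr19:40994222-40994471 and chr19:40994208-40994221.
Blnk before the start: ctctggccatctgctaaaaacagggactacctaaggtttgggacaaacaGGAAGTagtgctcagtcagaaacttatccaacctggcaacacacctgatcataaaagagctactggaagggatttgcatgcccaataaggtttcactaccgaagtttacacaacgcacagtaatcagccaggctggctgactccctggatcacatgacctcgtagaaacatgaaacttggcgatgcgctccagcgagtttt
Blnk after the start: ACTTCCcctgtgca

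**Figure D2:**
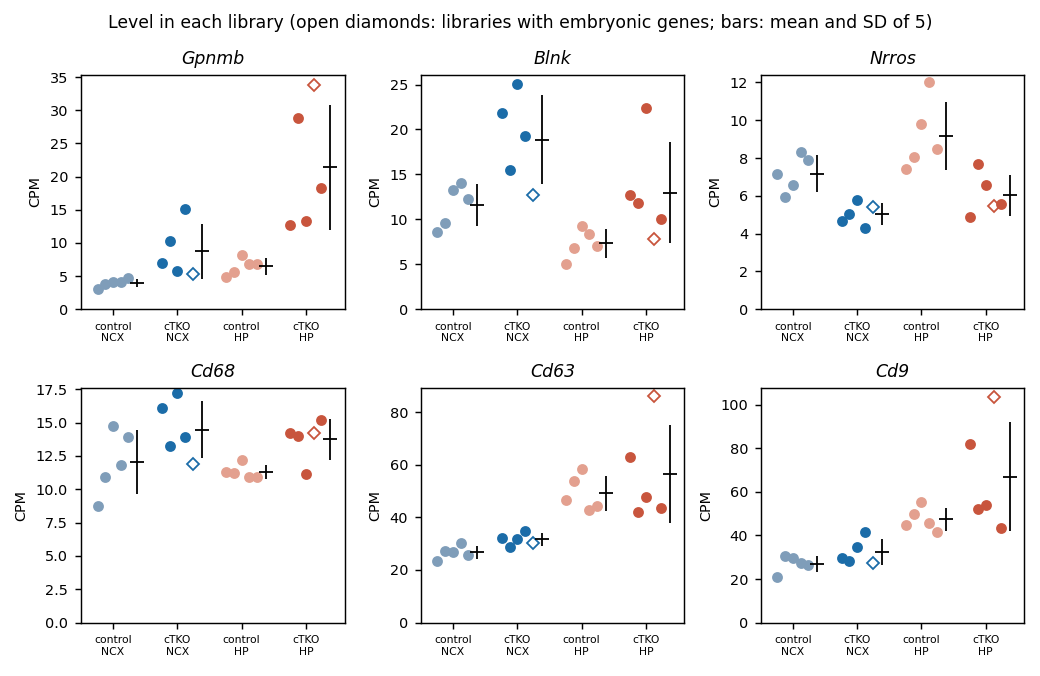
CPM of 6 microglia genes in each library of the 4 groups, with the mean and SD of 5 libraries to the right of each group; open diamonds are the libraries with embryonic RNA. Gpnmb shows no overlap between genotypes in either region and Nrros none in the neocortex, while the high cTKO values of Cd63 and Cd9 in the hippocampus (86.1 and 104 CPM) are those of library 4.

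No difference beyond the spread between libraries was found in the Trem2 receptor complex. Trem2, the lipid-sensing receptor, was at 6.48, 7.17, 7.24, 7.89 and 8.55 CPM in the control neocortex and at 8.35, 8.08, 9.06, 7.53 and 5.18 CPM in the cTKO neocortex. Hippocampal levels were 8.54, 13.5, 11.2, 9.03 and 8.37 CPM in controls and 12.7, 7.71, 9.08, 7.56 and 9.19 CPM in cTKO mice. The log2 fold changes were 0.05 (95% interval -0.28 to 0.38) and -0.13 (-0.53 to 0.27), so a change of Gpnmb's size in Trem2 lay outside both intervals.

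Tyrobp, the adaptor of Trem2, was at 7.46, 7.89, 8.23, 6.45 and 6.74 CPM in the control neocortex and at 7.403, 7.05, 7.87, 8.06 and 5.26 CPM in the cTKO neocortex. It was at 11.3, 14.3, 13.7, 10.03 and 12.4 CPM in the control hippocampus and at 15.1, 9.42, 11.9, 11.6 and 8.60 CPM in the cTKO hippocampus. The groups overlapped, with log2 fold changes of -0.03 (95% interval -0.33 to 0.26) and -0.12 (-0.48 to 0.23). Tyrobp lies 17398 bases from Aplp1, one of the deleted genes, on chromosome 7.

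The complement genes C1qa, C1qb and C1qc encode the chains of C1q, which tags synapses and debris for removal. C1qa was at 30.6, 30.0, 36.2, 35.5 and 35.5 CPM in the control neocortex and at 30.2, 34.5, 39.8, 40.2 and 28.1 CPM in the cTKO neocortex. Hippocampal levels were 44.2, 47.2, 48.6, 42.6 and 49.2 CPM in controls and 54.5, 42.5, 46.4, 61.2 and 37.1 CPM in cTKO mice. The highest value was that of cTKO library 4, and the log2 fold changes were 0.05 (95% interval -0.19 to 0.29) and 0.06 (-0.21 to 0.33). C1qb had -0.01 and 0.16, and C1qc -0.07 and -0.0036. Of 10 further complement genes 8 were tested and 0 called in either region. An unadjusted p under 0.05 was found for 2 in the neocortex and 1 in the hippocampus, against 10.4% and 12% of all genes. C1ra, a protease of the C1 complex that astrocytes also make, was higher in every cTKO neocortex (2.58 to 6.46 CPM) than in any control (1.91 to 2.47 CPM). That was so for 0.766% of all genes. The log2 fold change of C1ra was 1.03 (FDR = 0.128), and without library 5 it was 1.13 and called (FDR = 0.042). C4b stood at 0.88 (FDR = 0.227) in the hippocampus and at 0.51 (FDR = 0.271) without library 4.

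Genes of lysosomes and endosomal membranes had positive log2 fold changes in both regions with all libraries, and none was called. Cd68, a lysosomal membrane protein of macrophages, was at 11.3, 11.2, 12.2, 10.9 and 10.9 CPM in the control hippocampus and at 14.2, 13.97, 11.1, 14.2 and 15.2 CPM in the cTKO hippocampus. Of the 5 cTKO libraries 4 lay above every control. The difference was 0.28 ± 0.10 (SE, FDR = 0.252), 0.26 without library 4, and in the neocortex 0.29 ± 0.14 (SE, FDR = 0.516).

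The tetraspanins Cd9 and Cd63, of the plasma membrane and of late endosomes, are made by oligodendrocytes and astrocytes as well as by microglia. Cd9 was at 44.9, 49.8, 55.5, 45.9 and 41.6 CPM in the control hippocampus and at 82.2, 52.2, 53.9, 104 and 43.6 CPM in the cTKO hippocampus. Its log2 fold change was 0.50 (FDR = 0.351) with library 4 and 0.28 (FDR = 0.534) without it, and in the neocortex 0.28 (FDR = 0.472). Cd63 was at 23.6, 27.1, 26.7, 30.2 and 25.6 CPM in the control neocortex and at 32.2, 28.6, 31.8, 35.0 and 30.3 CPM in the cTKO neocortex. Only control library 4 reached into the cTKO range there, with a log2 fold change of 0.26 ± 0.08 (SE, FDR = 0.286). In the hippocampus the log2 fold change of Cd63 was 0.20 with library 4 and -0.01 without it.

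Spp1, the secreted protein osteopontin, was at 7.18, 6.81, 8.06, 7.89 and 9.45 CPM in the control neocortex and at 12.01, 7.34, 10.5, 11.6 and 7.18 CPM in the cTKO neocortex. Hippocampal levels were 23.5, 11.3, 12.1, 9.89 and 2.56 CPM in controls and 2.58, 6.83, 10.8, 12.3 and 8.43 CPM in cTKO mice. The hippocampal spread covered 2.56 to 23.5 CPM within controls alone. The log2 fold changes were 0.32 (95% interval -0.05 to 0.69) and -0.54 (-1.61 to 0.54).

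Lpl, a lipase also made by neurons, stood at 0.23 (95% interval -0.25 to 0.71) in the neocortex and 0.10 (-0.68 to 0.88) in the hippocampus, where controls alone ran from 35.3 to 93.1 CPM and the value without library 4 was -0.22 (FDR = 0.836). Axl, a receptor for dying cells, had -0.04 (-0.22 to 0.14) and 0.01 (-0.19 to 0.22). Ptprc, the leucocyte antigen CD45, was at 3.03, 3.94, 3.05, 3.85 and 4.31 CPM in the control neocortex and at 3.43, 3.04, 2.27, 5.51 and 5.78 CPM in the cTKO neocortex, with log2 fold changes of 0.14 and, in the hippocampus, of about 0 (95% interval -0.47 to 0.47). Without the libraries holding embryonic RNA they were -0.02 and -0.27 (FDR = 0.985 and 0.534).

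The genes most typical of plaque-associated microglia were close to the limit of the depth. Lgals3, the lectin galectin-3, passed the filter in the hippocampus only. It was at 1.16, 0.515, 1.09, 0.475 and 0.209 CPM in the control hippocampus and at 1.48, 1.79, 0.536, 1.48 and 1.06 CPM in the cTKO hippocampus. These overlapped, and the log2 fold change was 0.87 ± 0.42 (SE, FDR = 0.443). In the neocortex its counts were 8, 2, 5, 0 and 2 in controls and 12, 6, 7, 12 and 6 in cTKO mice, which overlapped (exact permutation p = 0.0397 on log2 CPM).

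Clec7a, the receptor dectin-1, had counts of 4, 7, 1, 2 and 2 in the control neocortex and of 13, 12, 9, 13 and 1 in the cTKO neocortex. These were 0.0823 to 0.418 CPM and 0.566 to 0.689 CPM apart from cTKO library 5, which was at 0.0740 CPM. Hippocampal levels were 0.502, 0.773, 0.272, 0.0951 and 0.784 CPM in controls and 0.902, 0.876, 0.206, 1.48 and 1.19 CPM in cTKO mice. The groups overlapped in both regions (exact permutation p = 0.103 and 0.19), and the gene did not pass the filter in either.

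Itgax, the integrin CD11c, had counts of 4, 7, 3, 2 and 2 in the control neocortex and of 8, 4, 6, 6 and 3 in the cTKO neocortex. Its counts were 8, 6, 7, 11 and 2 in the control hippocampus and 22, 7, 13, 3 and 17 in the cTKO hippocampus. Cst7, the protease inhibitor cystatin F, had counts of 0 to 2 in the control neocortex, 0 to 5 in the cTKO neocortex, 1 to 8 in the control hippocampus and 1 to 11 in the cTKO hippocampus. In 13 of 20 libraries Cst7 was at 3 counts or fewer.

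Complement C3 was at 2 to 19 counts in controls and 2 to 17 in cTKO mice, apart from 40 in library 4 of the cTKO hippocampus. The chemokine genes Ccl3 and Ccl4, which overlap each other on chromosome 11, had at most 11 and 8 counts in any library. At these counts no difference in C3, Cst7, Itgax, Ccl3 or Ccl4 was detectable between genotypes. Of 12 inflammatory cytokine genes, 3 passed the filter in the neocortex and 2 in the hippocampus, with 0 calls. There was 1 unadjusted p under 0.05, against 10.4% of all genes in the neocortex and 12% in the hippocampus. That was Ptgs2 in the hippocampus (log2 fold change 0.85, FDR = 0.146), a gene that neurons express.

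**Figure D3:**
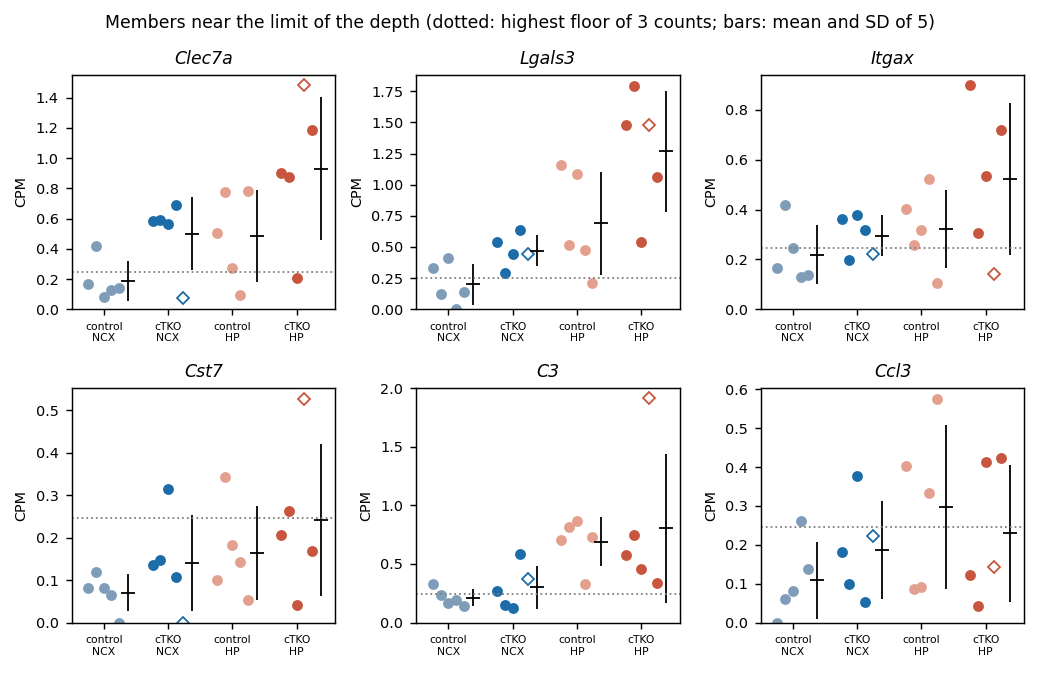
CPM of 6 activated genes near the limit of the depth in each library of the 4 groups, with the mean and SD of 5 libraries; the dotted line is the highest level that 3 counts stand for in any library, 0.247 CPM. Clec7a is at 0.566 to 0.689 CPM in 4 of 5 cTKO neocortices and at 0.418 CPM or less in the controls, while Cst7 and Ccl3 lie near or under the line in most libraries.

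On average, activated genes stood higher relative to homeostatic genes in cTKO than in control libraries, without overlap in the hippocampus only. The mean log2 CPM of the 15 homeostatic genes was 4.24 to 4.34 in control and 4.04 to 4.28 in cTKO neocortices. It was 4.4 to 4.6 in control and 4.18 to 4.6 in cTKO hippocampi. That of the 14 activated genes tested in both regions was 3.71 to 4.03 and 3.82 to 4.32 in the neocortex, and 4.19 to 4.45 and 4.31 to 4.89 in the hippocampus. The activated mean minus the homeostatic mean averaged -0.16 ± 0.14 in the control and 0.15 ± 0.09 in the cTKO hippocampus (SD, n = 5). The libraries ranged from -0.36 to 0.0057 and from 0.04 to 0.28, so they did not overlap. In the neocortex the averages were -0.42 ± 0.11 and -0.08 ± 0.17 (SD, n = 5), and the ranges, -0.53 to -0.28 and -0.29 to 0.10, overlapped.

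The gap was smaller without Gpnmb and Blnk, which were taken out after their values had been seen. Without them the difference of means ran from -0.13 to 0.28 in the control and from 0.13 to 0.42 in the cTKO hippocampus. The groups then overlapped. In the neocortex it ran from -0.34 to -0.10 and from -0.23 to 0.15. With Gpnmb and Blnk kept but library 4 left out, the range in the cTKO hippocampus was 0.04 to 0.19, still above the controls. With both genes and library 4 left out it was 0.13 to 0.26, which overlapped the controls. Without Nrros the homeostatic mean averaged 4.58 in the control and 4.5 in the cTKO hippocampus, against 4.49 and 4.37 with it. In the neocortex it averaged 4.4 and 4.3 without Nrros, against 4.3 and 4.17. These scores are descriptions, with no test.

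**Figure D4:**
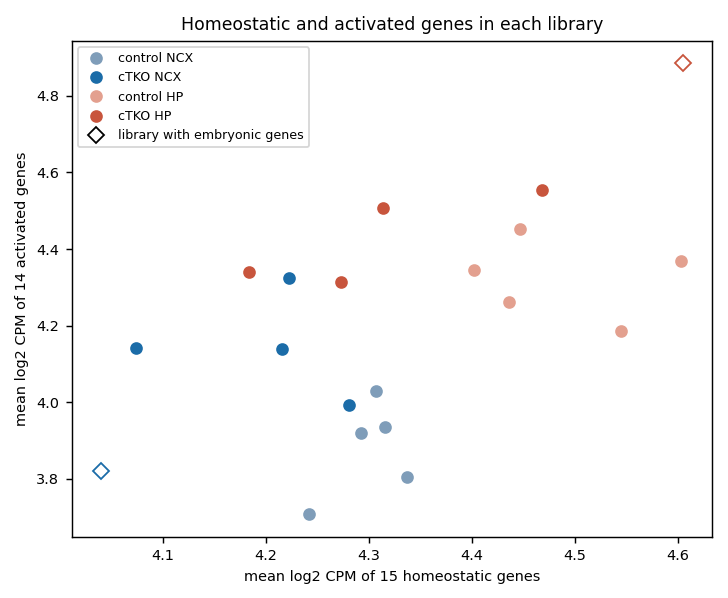
Mean log2 CPM of the 15 homeostatic genes (horizontal) and of the 14 activated genes tested in both regions (vertical), 1 point per library, coloured by group; open diamonds are the libraries with embryonic RNA. Hippocampal cTKO libraries lie mostly above or to the left of the controls, and library 4 lies at the top right with 4.6 and 4.89.

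With all libraries, microglia genes outside the members gave no call. Of 20 other microglia genes all were tested and 0 were called in either region. In the neocortex 2 and in the hippocampus 0 had an unadjusted p under 0.05, against 10.4% and 12% of all genes. Their medians were -0.03 (neocortex) and -0.05 (hippocampus). Abi3, an adaptor of the actin machinery, was at 4.10, 4.72, 4.44, 4.69 and 4.65 CPM in the control neocortex and at 3.29, 3.38, 3.84, 3.02 and 2.74 CPM in the cTKO neocortex. Every cTKO value was below every control, which was so for 1.6% of all genes. The log2 fold change of Abi3 was -0.46 (FDR = 0.233), and in the hippocampus it was 0.08. Inpp5d, a phosphatase that restrains Tyrobp signalling, stood at -0.27 (FDR = 0.331) in the neocortex and 0.04 in the hippocampus.

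Of 16 further genes of the disease-associated programme, 14 were tested in each region and 0 were called, with medians of 0.06 (neocortex) and 0.03 (hippocampus). An unadjusted p under 0.05 was found for 2 and 1 of them, against 10.4% and 12% of all genes. Rab32, a small GTPase of lysosome-related organelles, was among the genes that the study called in both regions. It was at 0.777 to 1.46 CPM in control and 1.64 to 2.14 CPM in cTKO neocortices. The groups did not overlap, which was so in this direction for 0.766% of all genes, and the log2 fold change was 0.73 (FDR = 0.214). In the hippocampus it stood at 0.62 (FDR = 0.228). Timp2, a protease inhibitor of many cell types, stood at 0.46 (FDR = 0.155) in the neocortex, or 0.54 and called without library 5 (FDR = 0.0287), and 0.03 in the hippocampus. Apoe, the main lipid carrier of the brain, made by astrocytes and microglia, stood at -0.15 (FDR = 0.715) and -0.25 (FDR = 0.539). Of 10 transcription factors of the lineage, 9 were tested and 0 called, with 0 (neocortex) and 2 (hippocampus) at an unadjusted p under 0.05, against 10.4% and 12%. The smallest p in the hippocampus was that of Mef2c (0.24, FDR = 0.155) and in the neocortex that of Smad3 (-0.33, FDR = 0.48), both also expressed by neurons, and Spi1, which encodes PU.1, stood at -0.09 and 0.24.

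Markers of other immune cells were low, apart from Cd4 in the neocortex. The sum of 10 monocyte and neutrophil markers was at most 1.95 CPM in any library, and 0 of the 10 passed the filter in either region. The sum of 6 T cell and NK cell markers was 0.261 to 0.902 CPM in the hippocampus and 4.31 to 11.8 CPM in the neocortex, where 1 of the 6, Cd4, passed the filter, at 4.31 to 9.19 CPM in controls and 4.83 to 11.7 CPM in cTKO mice (log2 fold change 0.27, FDR = 0.75). Markers of border macrophages summed to 14.1 to 33.6 CPM in controls and 16.6 to 37.8 CPM in cTKO mice over 10 genes, with medians of 0.21 in the neocortex and -0.13 in the hippocampus. Choroid plexus markers varied in the hippocampus, from 75.7 to 2720 CPM in controls and from 112 to 601 CPM in cTKO mice over 6 genes, all with negative log2 fold changes and a median of -1.64. Their part in the results was not tested.

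More members were called between regions than between genotypes. In controls 17 of 29 members tested were called between hippocampus and neocortex, a share close to the 59.1% of all genes, but 15 of the 17 were higher in the hippocampus, against 29.8% of all genes called higher and 29.2% called lower. Of the 29, 23 had a positive log2 fold change, against 51.4% of all genes. With mice matched by number, which the control libraries bore out, 20 of 29 were called, against 61.4% of all genes. Region and RNA kit cannot be told apart here. The largest differences were in activated genes. Lpl was at 93.1, 35.3, 41.3, 41.7 and 90.1 CPM in the control hippocampus and at 23.8, 13.7, 16.7, 17.1 and 24.7 CPM in the control neocortex, without overlap and 1.63 ± 0.27 higher on the log2 scale (SE, FDR = 9.85e-05). Cd63 was 0.88, Cd9 0.82, Tyrobp 0.75 and Gpnmb 0.72 higher on the log2 scale, all without overlap. Of the members 9 of 29 were higher in the hippocampus without overlap, against 22.4% of all genes.

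Only Blnk and Sall1 were called lower in the control hippocampus. Blnk averaged 7.32 ± 1.59 CPM there and 11.6 ± 2.35 CPM in the neocortex (SD, n = 5), a log2 difference of -0.65 (FDR = 0.00332). Sall1, the transcription factor that keeps microglial identity but is also found in other cells of the brain, averaged 30.5 ± 2.58 and 37.4 ± 3.52 CPM (SD, n = 5), a difference of -0.30 (FDR = 0.00445). Of the homeostatic genes 5 of 15 were called higher, Gpr34 (0.54), Olfml3 (0.48), Nrros (0.35), P2ry12 (0.34) and Tmem119 (0.21), while Csf1r and Cx3cr1 stood at -0.03 and 0.11 and were not called. The calls of Nrros and Tmem119 were close to the threshold (FDR = 0.0429 and 0.0408). That of Nrros was lost without control library 3 or 4 of the hippocampus or 1, 2 or 3 of the neocortex (FDR = 0.0762 to 0.135). That of Tmem119 was lost without control library 2, 4 or 5 of the hippocampus or 1 or 2 of the neocortex (FDR = 0.0552 to 0.117).

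In cTKO mice 12 of 29 members were called, all higher in the hippocampus, against 41.3% of all genes called and 20.2% called higher, and 22 of 29 were positive, against 49.7%. Lpl (1.5), Gpnmb (1.27), Cd9 (1.03), Cd63 (0.82) and Olfml3 (0.68) had the largest differences on the log2 scale. With same-numbered libraries matched, 14 were called, against 41.9% of all genes, with Fcrls added as higher and Blnk as lower in the hippocampus. Without the libraries holding embryonic RNA 6 were called, against 37.6% of all genes, namely Cd63, Cd9, Gpnmb, Lpl, Olfml3 and Tyrobp. The difference of Gpnmb between regions was 0.72 in controls and 1.27 in cTKO mice. The interaction that compares them, which uses the same libraries, gave 0.56 ± 0.41 (SE, FDR = 1), so a difference was not shown. Of 30 members tested for the interaction 0 were called by the quasi-likelihood test or by any other fit tried, against 0.0564% of 14192 genes, and 0 had an unadjusted p under 0.05, against 3.75% of all genes. The smallest p was that of Spp1 (-0.85 ± 0.54, SE, FDR = 1).

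**Figure D5:**
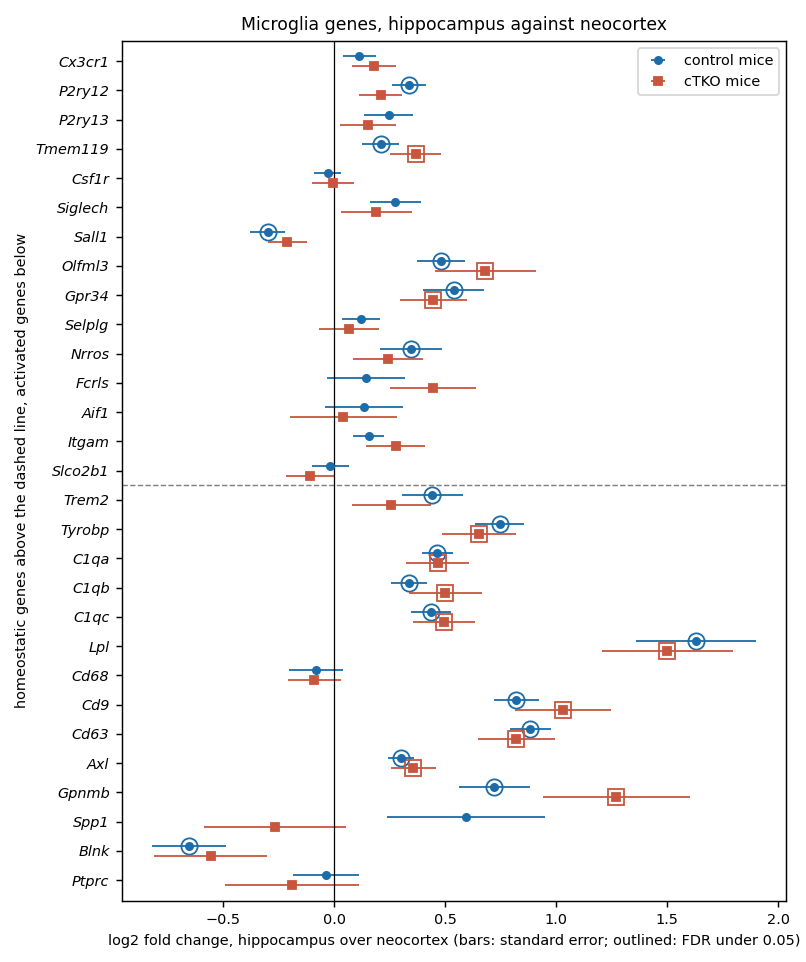
Log2 fold change of hippocampus over neocortex for each microglia gene tested, in control (circles) and cTKO mice (squares), with standard errors from edgeR over 5 libraries a group; outlined points passed an FDR under 0.05. Most members lie right of 0, with Lpl furthest at 1.63 and 1.5, and Blnk lies to the left at -0.65 and -0.56.

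Within groups the members varied together. After the mean of each group was taken from log2 CPM, the median Pearson correlation over 20 libraries was 0.27 among homeostatic genes, 0.28 among activated genes and 0.22 between the sets, against -0.0017 between members and all other genes tested. Among the closest pairs were C1qa with C1qb (r = 0.953) and Cd9 with Cd63 (r = 0.896). Of the single genes, Cx3cr1 (0.787), Csf1r (0.780) and C1qa (0.774) followed the homeostatic mean most closely. Gpnmb (0.292), Blnk (-0.127) and Nrros (-0.514) followed it less. So did other members of both sets, such as Fcrls (0.141), Slco2b1 (0.0697), Cd68 (0.124) and Spp1 (-0.157). The libraries share depth, dissection and the embryonic RNA of a pair of them, so these are descriptions.

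Per kilobase of annotated exon (all GENCODE M21 isoforms joined, so an approximate length), C1qa, C1qb and P2ry12 led in both regions, with 44.6, 40.5 and 25 CPM per kilobase in the control hippocampus and 32.2, 32.2 and 19.7 in the control neocortex. Gpnmb was at 0.990 and 0.605 CPM per kilobase, Blnk at 1.22 and 1.94 and Nrros at 2.19 and 1.72. The lowest were Itgax in the hippocampus (0.0668) and C3 in the neocortex (0.0414), both near the limit of the depth.

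Of the 36 members 28 had a RefSeq promoter window of 300 bases, 250 before and 50 after the start, of GRCm38.p6. The PU.1 core GGAAGT, searched on both strands, was in the windows of 15 of 28 members (53.6%), among them Blnk, P2ry12, Cd68 and Spp1, against 27.9% of 17224 counted genes. The AP-1 motif TGANTCA was in 6 of 28 (21.4%), namely Gpnmb, Trem2, Cd68, Cst7, Itgax and Slco2b1, against 8.44% of genes. The E-box CACGTG was in 2 of 28 (7.14%), P2ry12 and Siglech, against 9.17%. A gene counted if any of its windows held the motif, and 5 members had more than 1 window. A match is a string of letters and not a shown binding site.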

How the data were processed

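Each region and genotype had 5 RNA libraries, 20 in all, grouped by their labels. The authors enriched polyadenylated RNA, mapped single-end reads to mm10 with STAR 2.5.4a, used HTSeq to count reads per gene, and deposited raw counts by gene symbol. All 36 members were read by symbol, and 0 columns went unmapped.

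Counts were scaled by TMM and tested with edgeR 4.0.16 (R 4.3.3; quasi-likelihood, FDR by Benjamini-Hochberg over all genes tested), on genes that exceeded a CPM of 1 in 5 or more of the libraries compared. CPM uses TMM sizes over all 20 libraries and log2 CPM a prior count of 2. The floor of 3 counts covers counting error only, since reads carry no molecular identifiers. The script was tested on simulated data. Per the study's methods, both regions were taken from 5 mice of each genotype, and p-values measure the spread between these libraries. The members and lists were chosen with earlier results of these data known. Genes were named by rule: members called, named by the study, not overlapping, microglia-defining, among the 3 largest rises or falls in a region, with an unadjusted p under 0.05, called between regions or under the filter, and for other lists the smallest p. Inpp5d, Apoe, Ltbp3, Itgb8 and Spi1 lie outside it and were picked with their values known.

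Same-numbered libraries of the controls deviated together in all 5 pairs (r from 0.124 to 0.335), so the numbers paired them. Between regions in cTKO mice 3 of 5 pairs exceeded 0.1 (r from -0.102 to 0.371). The others were the pairs numbered 4 (r = -0.0622) and 5 (r = -0.102). Library 5 of the neocortex and library 4 of the hippocampus, which held embryonic RNA, deviated together (r = 0.603). Same-numbered cTKO libraries matched in Xist class in 5 of 5 pairs. No label says that a number is a mouse, so both fits are given. Between genotypes 3 pairs exceeded 0.1 in the neocortex and 1 in the hippocampus, where the numbers join different mice.

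Alternatives were edgeR's exact and likelihood ratio tests, DESeq2 1.42.0, a robust fit, DESeq2 size factors, 3 other filters, 1 fit of all libraries, the replicate block, Xist as a covariate, each library left out and both libraries with embryonic RNA left out. The exact test without those libraries was added after seeing the data. RefSeq windows and positions are of GRCm38.p6. Figures were drawn with matplotlib 3.10.9 in Python 3.11.15.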

Additional observations from a re-analysis of the deposited data

Results flagged for a closer look

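In groups of 5 libraries, a value was singled out when its gap to the nearest library, divided by the range of the group, was above Dixon's 95% critical value of 0.71. That held for 5 of 118 groups of member, genotype and region, where chance gives about 1 in 20, or 5.9. P2ry12 was high in library 2 of the control hippocampus (74.4 CPM, the others 59.2 to 63.5). Csf1r was low in library 5 of the cTKO neocortex (68.6 CPM, the others 87.1 to 93.7). Olfml3 was high in library 4 of the cTKO hippocampus (49.1 CPM, the others 19.6 to 22.4), as was Ptprc (5.98 CPM, the others 2.5 to 3.32). Itgam was high in library 2 of the control neocortex (34.0 CPM, the others 27.6 to 28.8). Of the 5 values, 3 come from the libraries with embryonic RNA. The part of that RNA in them was not tested.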

How the results depend on the processing

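Of members between genotypes in the neocortex, 0 were called; 2 with the exact test, the likelihood ratio test, DESeq2 or without the libraries holding embryonic RNA (Gpnmb and Blnk each time), 3 with the exact test without those libraries (Nrros besides), and 0 to 2 with a library left out. In the hippocampus 1 was called; 2 with the exact test, the likelihood ratio test or 1 fit of all libraries (Gpnmb and Nrros), 3 with DESeq2 (Blnk besides), 2 with the exact test without those libraries (Gpnmb and Blnk) and 0 to 1 with a library left out. Between regions in cTKO mice 12 were called, 6 without those libraries and 9 to 14 with a library left out. Between regions in controls 15 to 21 were called over all alternatives, and by the interaction 0 in all 31. The cause of these moves was not tested. Over all genes the count called ranged from 7 to 328 in the neocortex and from 15 to 331 in the hippocampus, against 26 and 67 in the main fit. The share of all genes called by each single test is not given here.

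With the replicate block, 0 members were called in the neocortex, 1 in the hippocampus, 20 between regions in controls, 14 in cTKO mice and 0 by the interaction. Each control library correlated best with its own number in 5 of 5 cases.

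The exact test could not be fitted to the interaction. The direction of Gpnmb, Blnk and Nrros held under every alternative in both regions, with log2 fold changes of 0.87 to 1.29 and 1.49 to 1.86 for Gpnmb in the neocortex and hippocampus. Its FDR was under 0.05 in 7 of 23 and 20 of 23 alternatives, that of Blnk in 6 of 23 and 2 of 23, and that of Nrros in 1 of 23 and 4 of 23. Over the alternatives the median log2 fold change of homeostatic genes ran from -0.15 to -0.07 in the neocortex and from -0.18 to 0.01 in the hippocampus, and that of activated genes from 0.10 to 0.275 and from -0.03 to 0.26. Signs of 5 of 29 members in the neocortex and 7 of 30 in the hippocampus turned without the libraries holding embryonic RNA, none of them called. The largest were Ptprc in the neocortex (0.14 to -0.02) and Olfml3 (0.20 to -0.13), Cd63 and Lpl (0.10 to -0.22) in the hippocampus. Without the libraries holding embryonic RNA Tyrobp in the neocortex stood at 0.0448 (0.0445 with the exact test), and in the hippocampus Cd63 at -0.00808 (-0.00794) and C1qa at -0.0445. With a library left out the ranges in the neocortex were -0.0133 to 0.147 for Trem2, -0.0841 to 0.0448 for Tyrobp and -0.0112 to 0.109 for C1qa, and in the hippocampus -0.00808 to 0.288 for Cd63, -0.112 to 0.0169 for Cx3cr1, -0.11 to 0.0281 for Tmem119, -0.0445 to 0.142 for C1qa and -0.202 to 0.0922 for Fcrls. Depth limits the members under the filter, where 3 counts stand for 0.123 to 0.247 CPM.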
